A study of Mus musculus with 160 samples.

Results

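The 28 genes described here are the ligands (Tnfsf genes) and receptors (Tnfrsf genes) of the tumor necrosis factor (TNF) superfamily measured by RNA sequencing of mouse distal colon. They were all protein-coding genes among the 39179 in the count files whose symbol starts with Tnfsf or Tnfrsf and that reached at least 10 reads over all samples, apart from 3 receptors that the choice leaves out and that are not reported here. The 28 genes comprised 11 ligands and 17 receptors. The 160 samples came from 4 knockout lines, each with homozygous knockout (KO) and wild-type (WT) mice whose founders were re-derived with C57BL6/J females and which were kept by crossing heterozygotes. The Nckap1l line (C57BL6/J, 16 KO and 15 WT, 12 females among 31) was collected at day 12, and the Dock2 line (C57BL6/J, 18 KO and 24 WT, 20 females among 42), the Gpsm3 line (C57BL6/J, 20 KO and 20 WT, labelled male) and the Dok3 line (labelled 129, 26 KO and 21 WT, labelled male) at day 10. By the labels, dextran sulfate sodium (DSS), a polymer in the drinking water that injures the colonic epithelium, was given for 5 days at 3% to the Dock2 and Gpsm3 lines and at 3.5% to the Dok3 line, and the labels give no percentage for the Nckap1l line. The study's paper states that Dok3 mice received 3% in a first round and 3.5% later, whereas all Dok3 samples are labelled 3.5%. For Nckap1l mice the paper gives a slightly lower dose than for the other lines. The labels do not say which animals received DSS, so that treated and untreated mice stand together within every group. Ages, and the part of the gene that each knockout lacks, are not in the labels.

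TNF superfamily ligands are trimeric proteins of the cell surface or of secretions, and most are made by activated immune, epithelial or stromal cells. Each binds 1 or several receptors, some of which carry a death domain and can start apoptosis, while most recruit adaptor proteins that activate NF-kB. In the gut the family is known for TNF itself, the target of antibody therapy in inflammatory bowel disease, and for costimulatory pairs that tune T-cell and B-cell responses.

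Depth ranged from 4344988 to 19993833 reads assigned to genes per sample, with a median of 15989626, and 3 reads corresponded to between 0.15 and 0.69 CPM (reads scaled to library size), below which a level could not be told from a few reads. The targeted gene was lower in the KO than in the WT groups by medians in all 4 lines, with log2 differences of -1.09 (Nckap1l), -0.62 (Dock2), -2.06 (Gpsm3) and -0.48 (Dok3), yet the groups overlapped in every line, and only Gpsm3 passed the edgeR test (adjusted p = 0.0001005). In all, 8, 15, 6 and 22 KO samples of the Nckap1l, Dock2, Gpsm3 and Dok3 lines lay at or above the lowest WT sample for their own gene. In the Dok3 line 5 samples labelled male (3 KO and 2 WT) had female-type sex-linked expression. Colon epithelial markers were high throughout, at a mean log2 CPM between 6.14 and 9.89 over 10 genes, while a score of 8 skin genes ranged from -1.18 to 10.0 and a score of 6 striated muscle genes from -1.01 to 10.6, so that some samples held RNA of skin and striated muscle type. In this bulk tissue, fewer cells of a type and less RNA per cell cannot be told apart.

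The receptors took most of the family's RNA. On a scale corrected for transcript length (RPKM, reads per gene scaled to library size and merged exon length, mean ± SD over 160 samples), the 5 highest levels were those of Tnfrsf1a (TNF receptor 1) at 37.6 ± 11.7, Tnfrsf11a (RANK) at 33.2 ± 7.21, Tnfrsf21 (death receptor 6) at 24.6 ± 5.07, Tnfrsf1b (TNF receptor 2) at 20.04 ± 16.7 and Tnfrsf14 (HVEM) at 14.1 ± 3.83. The first of these made up 21.4% and the next 18.9% of the summed level of the 28 genes. The order among the first 5 was not firm throughout, since Tnfrsf1a exceeded Tnfrsf11a in only 72 of 160 samples and Tnfrsf1b exceeded Tnfrsf14 in only 87. Tnfrsf12a (Fn14, the receptor for TWEAK) followed at 7.82 ± 5.55 RPKM.

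The ligands were lower. Tnfsf12 (TWEAK) had 4.48 ± 0.80 RPKM, Tnfsf10 (TRAIL) 4.47 ± 3.09 and Tnfsf13 (APRIL) 4.16 ± 1.03, and Tnfsf12 lay above Tnfsf10 in 102 samples, although their means were alike. Tnfsf9 (the ligand of 4-1BB) had 1.18 ± 0.87, Tnfsf15 (TL1A) 1.11 ± 0.34, Tnfsf13b (BAFF) 0.833 ± 0.26 and Tnfsf11 (RANKL) 0.802 ± 1.597. Tnfsf14 (LIGHT) at 0.549 ± 0.82, Tnfsf18 (the ligand of GITR) at 0.366 ± 0.28, Tnfsf8 (the ligand of CD30) at 0.285 ± 0.18 and Tnfsf4 (the ligand of OX40) at 0.185 ± 0.12 were the lowest. Tnfsf4 had no read in 5 samples, and it passed the filter on low counts in no line, so it was tested within no line apart from correlations.

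Among the remaining receptors, the mean levels ran from Tnfrsf11b (osteoprotegerin, a secreted decoy for RANKL) at 3.55 ± 3.63 RPKM, Tnfrsf18 (GITR) at 3.43 ± 0.65, Tnfrsf10b (the TRAIL death receptor) at 2.60 ± 0.84, Tnfrsf8 (CD30) at 2.50 ± 3.83 and Tnfrsf19 (TROY) at 2.15 ± 2.29 to Tnfrsf4 (OX40) at 1.49 ± 0.55, Tnfrsf23 (a decoy TRAIL receptor) at 1.43 ± 1.40 and Tnfrsf25 (the TL1A receptor) at 1.27 ± 0.40. Tnfrsf9 (4-1BB) at 0.490 ± 0.66, Tnfrsf22 (a second decoy TRAIL receptor) at 0.458 ± 0.18 and Tnfrsf26 at 0.401 ± 0.49 closed the list. Neighbours in this lower range did not keep a firm order: Tnfrsf11b exceeded Tnfrsf18 in 50 samples and Tnfrsf8 exceeded Tnfrsf19 in 57. The ratio of the highest to the lowest group mean was largest for Tnfrsf8 (5.77), Tnfsf11 (4.63) and Tnfrsf9 (3.8) and smallest for Tnfsf12 (1.08).

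**Figure D1:**
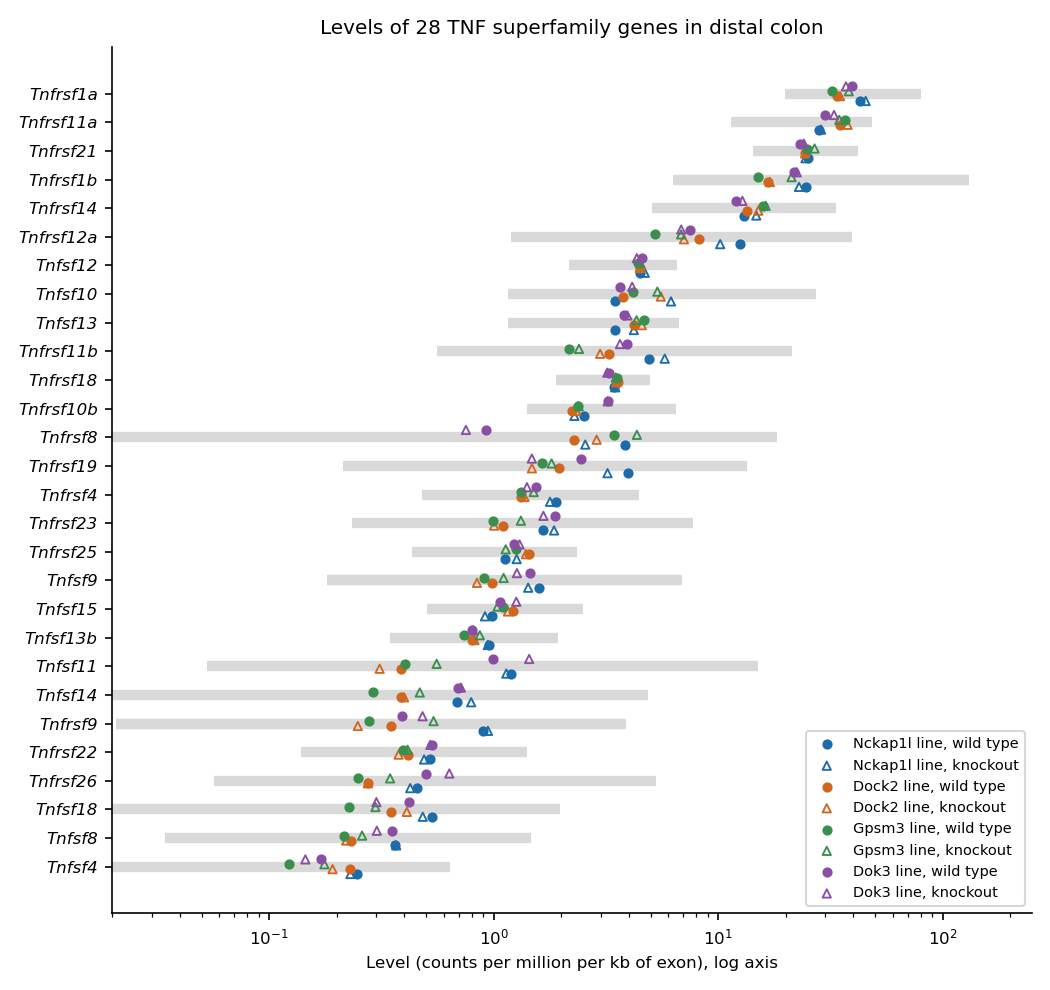
Mean length-corrected level (RPKM, log axis) of each of the 28 TNF superfamily genes in the 8 groups of distal colon samples, with a grey bar from the lowest to the highest of the 160 samples, drawn no lower than 0.02 RPKM. Tnfrsf1a, Tnfrsf11a, Tnfrsf21, Tnfrsf1b and Tnfrsf14 stood highest in the mean, and Tnfrsf8 had the widest spread between groups.

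Some reads could not be given to a single gene with certainty. Tnfsf12 and Tnfsf13 (chromosome 11, 69686250-69695849 and 69682846-69685784, GRCm38, minus strand) share 48.3% and 60.0% of their exon bases with a read-through gene, Tnfsfm13, that had 0 counts in all samples, and Tnfsf13 shares 13.5% with its antisense gene Tnfsf13os. Tnfrsf18 overlaps the antisense gene Gm16008 over 27.2% and Tnfsf9 overlaps Gm11110 on the other strand over 14.9% of exon bases. Tnfrsf22 and Tnfrsf23, neighbours on chromosome 7, share 20.3% and 9.3% of all runs of 100 bases with each other or another gene, so the values of these genes are uncertain to that extent.

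The first comparison asked whether loss of each knocked-out gene changed the family's RNA in the distal colon. No member passed the test in any line, and the member nearest to it in the Nckap1l and Dock2 lines was Tnfsf10, which encodes TRAIL, a ligand that can trigger apoptosis. In the Nckap1l line Tnfsf10 had 10.0 CPM in the lowest, 20.3 in the median and 144 in the highest KO sample, against 8.91, 20.4 and 33.1 in WT. In the Dock2 line the values were 10.2, 22.7 and 113 in KO and 11.9, 18.9 and 27.9 in WT. In both lines the medians lay close together and the KO group reached far higher than any WT sample, while most of the samples overlapped.

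The log2 difference of Tnfsf10, KO minus WT, was 0.75 (SE 0.34, p = 0.0349, edgeR quasi-likelihood adjusted p = 1.00) in the Nckap1l line and 0.52 (SE 0.18, p = 0.00636, edgeR adjusted p = 0.613) in the Dock2 line. It was 0.37 (SE 0.23) in the Gpsm3 line, where KO samples ranged from 12.4 to 74.6 CPM and WT samples from 6.08 to 52.7, and 0.18 (SE 0.17) in the Dok3 line, where KO samples ranged from 7.36 to 49.6 and WT samples from 11.0 to 55.5. None of these differences passed the threshold after adjustment.

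**Figure D2:**
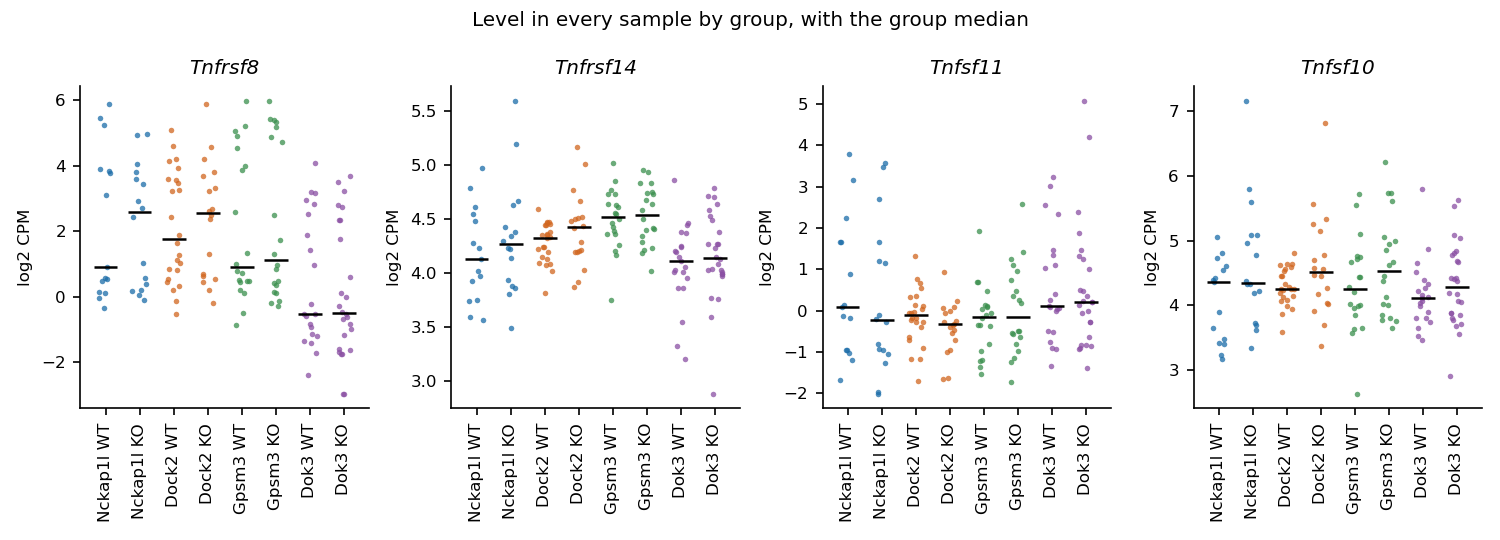
Level (log2 CPM) of Tnfrsf8, Tnfrsf14, Tnfsf11 and Tnfsf10 in each of the 160 samples by group, with a line at the group median. KO and WT points overlapped in every line, with a few high Tnfsf10 values among Nckap1l and Dock2 KO samples, and Tnfrsf8 lay lower in the Dok3 line than in the others.

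In the Gpsm3 line the members with the smallest p were Tnfrsf9, a costimulatory receptor of activated T cells, Tnfrsf1a and Tnfsf13b, a B-cell survival factor. Tnfrsf9 had 0.181, 1.08 and 8.10 CPM (lowest, median, highest) in KO and 0.0565, 0.558 and 3.11 in WT, overlapping over most of the range. Its log2 difference was 0.94 (SE 0.40, p = 0.0247, edgeR adjusted p = 0.936). Tnfrsf1a had 68.0, 91.0 and 156 CPM in KO and 57.7, 77.6 and 135 in WT (log2 difference 0.25, SE 0.11, p = 0.0269, edgeR adjusted p = 0.936), and Tnfsf13b differed by 0.24 (SE 0.13). The Gpsm3 KO group also had the higher mean inflammation score, defined further on, at 1.57 against 0.98 in WT, and the part of that score in these differences was not tested beyond the covariate fit, which called no member.

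In the Dok3 line the members nearest to the threshold were Tnfrsf19, a receptor known from hair follicle and stem cell biology, at a log2 difference of -0.73 (SE 0.38, p = 0.0603), Tnfsf15 at 0.23 (SE 0.14) and Tnfsf18 at -0.52 (SE 0.33). Tnfrsf19 ranged from 1.93 to 30.1 CPM in KO and from 1.02 to 63.7 in WT around medians of 5.02 and 5.04, the WT group reaching both lower and higher. The mean skin score was 1.33 in KO and 2.52 in WT, and with skin and striated muscle scores as covariates the Tnfrsf19 difference was 0.0146. The other members closest to the threshold were Tnfsf13 (0.24, SE 0.15) and Tnfrsf10b (-0.17, SE 0.13) in the Nckap1l line and Tnfrsf11a (0.12, SE 0.06) and Tnfrsf14 (0.14, SE 0.08) in the Dock2 line, the groups overlapping in each case.

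Over the family, 27, 27, 25 and 26 members were tested in the Nckap1l, Dock2, Gpsm3 and Dok3 lines and 0 passed in each, where 0%, 0.034%, 0.00569% and 0% of all genes did. At an unadjusted p under 0.05, 1, 1, 2 and 0 members were higher in KO and 0 lower, against 4.5%, 5.1%, 4.86% and 2.19% of all genes in either direction. Limma-voom and DESeq2 also called 0 members in every line. The median log2 difference of the tested members was 0.0442, -0.00325, 0.199 and -0.0138, beside 0.00825, -0.00284, 0.00318 and -0.000104 over all genes. In the Gpsm3 line 6 of 8 ligands and 14 of 17 receptors were above 0, none of which passed. There every tested gene of the inflammation, B-cell, regulatory T-cell, T-cell and macrophage lists was also above 0, with medians of 0.885, 0.537, 0.521, 0.204 and 0.284, and their part in the members' values was not tested. Of 15 other superfamily genes (Tnf, Fas, Cd40 and others that lack the Tnfsf or Tnfrsf symbol) and 24 genes of the signalling path downstream (TRAF, NF-kB and caspase genes), 0 passed in any line.

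**Figure D3:**
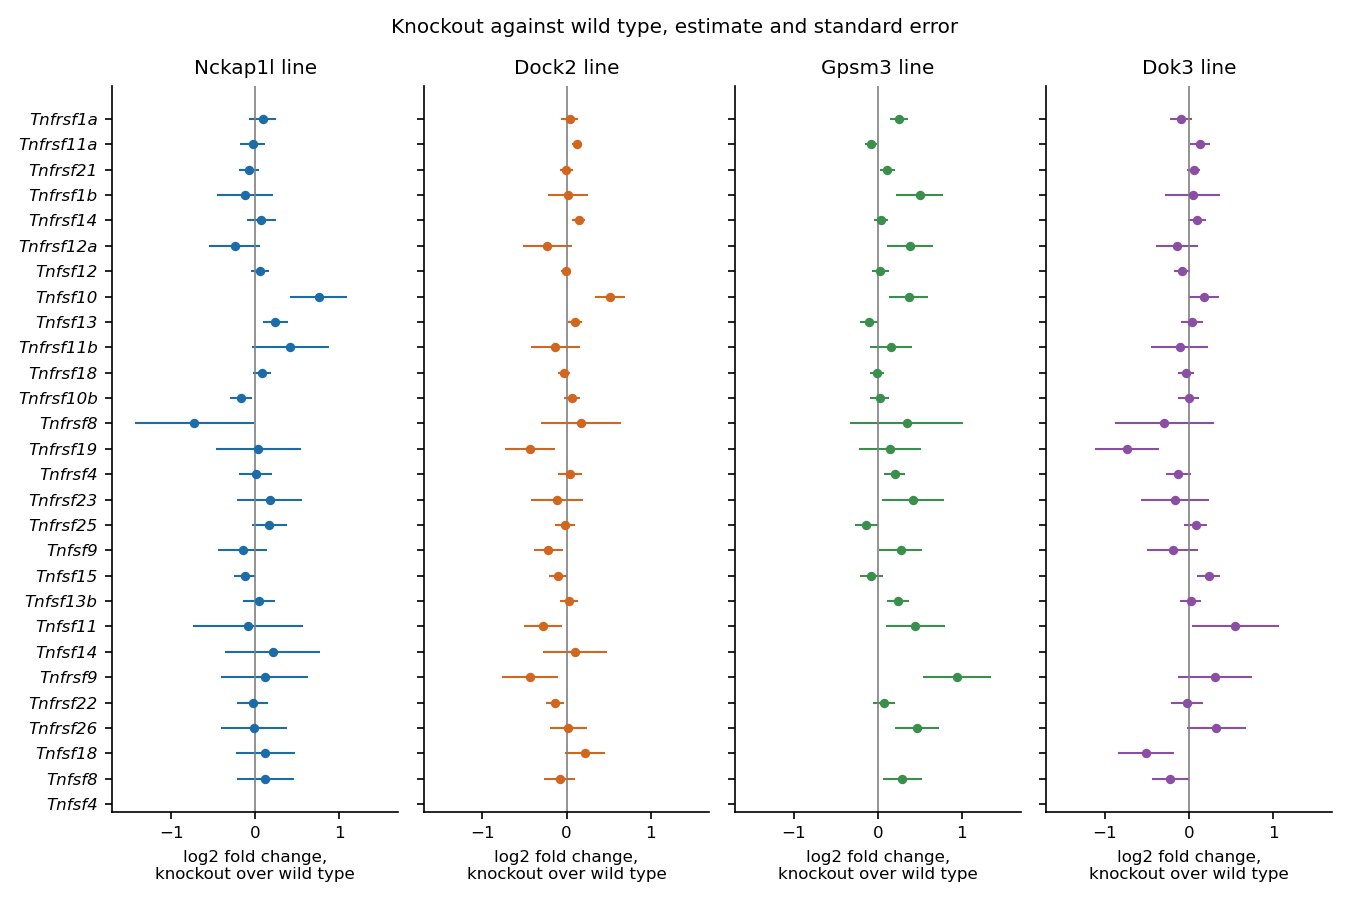
Log2 difference between KO and WT (± SE, edgeR) for each TNF superfamily member in the 4 lines, 1 panel per line. No member passed the adjusted threshold, the largest values belonged to members with wide bars, and Tnfsf4 was not tested.

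Whether the KO effect differed between the lines was tested as an interaction over all 160 samples. Of the 28 members 0 passed by edgeR, 0 reached an unadjusted p under 0.05 and 0 passed by limma-voom, where 0.69% of all genes passed and 5.68% had an unadjusted p under 0.05.

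Only the Nckap1l and Dock2 lines held both sexes. In the Dock2 line Tnfsf18, the ligand of the T-cell receptor GITR, had 0.435, 0.971 and 1.79 CPM (lowest, median, highest) in 20 females and 0.108, 0.494 and 1.69 in 22 males. The sexes overlapped over most of this range, and the lowest male value was under the 3-read floor. It was higher in females by 0.75 on the log2 scale (SE 0.24, edgeR adjusted p = 0.039), the only member called in this fit, with 4.26% of all genes higher and 5.5% lower. The call was lost with the inflammation score as a covariate (0.67, edgeR adjusted p = 0.0545) and without the filter on low counts (0.75, 0.0644), where the difference stayed about as large, and it was kept under limma-voom (0.97, adjusted p = 0.00731) and with skin and muscle scores as covariates (1.02, edgeR adjusted p = 0.00248). The fit with the inflammation score called 5 other members instead, so the members called depended on the covariates. At an unadjusted p under 0.05 in the first fit, 3 members were higher and 4 lower of 27 tested. These counts stand without a share of all genes. In the Nckap1l line 0 members passed by edgeR or limma-voom, 1 had an unadjusted p under 0.05, and 0.106% of all genes were higher and 0.0724% lower in females. There Tnfsf18 had a median of 1.54 CPM in 12 females and 0.627 in 19 males.

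The Dok3 line and the Gpsm3 line, both labelled male and collected on the same day, differed in strain label, labelled DSS percentage, targeted gene and experiment, which cannot be told apart. Of 27 members tested, 7 were higher and 2 lower in the Dok3 line, where 16.7% of all genes were higher and 15.6% lower. Tnfrsf8, which encodes CD30, a receptor of activated lymphocytes, showed the widest gap. It had 0, 0.573 and 16.9 CPM (lowest, median, highest) in the Dok3 line, with no read in 2 samples, against 0.423, 1.85 and 62.9 in the Gpsm3 line. The Nckap1l and Dock2 lines, both C57BL6/J, had medians of 5.27 and 5.17 CPM, so that the Dok3 line had the lowest median of all 4. The log2 difference, Dok3 minus Gpsm3, was -2.20 (SE 0.46, edgeR adjusted p = 9.852e-05).

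Tnfrsf14, the receptor for LIGHT and a partner of the inhibitory receptor BTLA, had 7.26, 17.3 and 28.9 CPM in the Dok3 and 13.3, 22.8 and 32.1 in the Gpsm3 line. The Dok3 samples reached lower and the ranges overlapped above that, at a log2 difference of -0.37 (SE 0.07, edgeR adjusted p = 3.017e-05). In the opposite direction, Tnfrsf10b had 7.73, 16.2 and 35.5 CPM in the Dok3 and 7.67, 12.6 and 21.1 in the Gpsm3 line, a difference of 0.45 (SE 0.09, edgeR adjusted p = 4.016e-05). These 3 genes kept their call and direction in all 8 alternatives tried.

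Tnfrsf26 had 0.346, 1.27 and 17.1 CPM in the Dok3 against 0.253, 0.745 and 3.97 in the Gpsm3 line (log2 difference 0.95, SE 0.23, edgeR adjusted p = 0.0008097). Tnfsf11 had 0.251, 1.02 and 33.8 against 0.171, 0.776 and 5.87 CPM, with the Dok3 samples extending far above the others (log2 difference 1.34, SE 0.33, edgeR adjusted p = 0.001081). The call of Tnfsf11 was lost with the inflammation score as a covariate (log2 difference 0.44, edgeR adjusted p = 0.0518) and under limma-voom (0.70, adjusted p = 0.0623). Without the 20 Gpsm3 samples of the first run of sample numbers, with all 47 Dok3 samples kept, 1 member was higher and 2 lower, and the calls of Tnfrsf26 (log2 difference 0.70, edgeR adjusted p = 0.1455) and Tnfsf11 (1.25, 0.0789) were lost. Limma-voom called 5 higher and 4 lower. Of the other superfamily genes 3 of 12 were higher, and of the signalling genes 4 of 24 were higher and 1 lower.

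Because the labels do not give the treatment of each animal, the state of the mucosa was read from the samples themselves. An inflammation score was the mean log2 CPM of 24 genes of acute colitis (neutrophil genes, S100a8, S100a9, Il1b, Il6, Saa3 and others), none of them a member of the family. The score is a measurement of the same libraries and no treatment. It ran from -0.36 to 6.93 in the Nckap1l, from -0.58 to 6.70 in the Dock2, from -0.72 to 6.04 in the Gpsm3 and from -0.91 to 7.96 in the Dok3 line. The slope of each gene on the score, in log2 units per 1 log2 unit of the score and with genotype and sex as covariates, was tested in each line across all genes.

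Much of the family rose with the score in all lines. Members rising and falling numbered 15 and 2 of 27 in the Nckap1l, 16 and 4 of 27 in the Dock2, 17 and 2 of 25 in the Gpsm3 and 16 and 4 of 26 in the Dok3 line. Of all genes, 23.3% rose and 24.7% fell in the Nckap1l, 28.5% rose and 27.2% fell in the Dock2, 28% rose and 26% fell in the Gpsm3, and 32.8% rose and 30.6% fell in the Dok3 line. The median slope of the tested members was 0.161, 0.116, 0.116 and 0.122, beside medians of 6.88e-05, -0.00102, 0.00037 and 0.00144 over all genes. Of 25 members tested in all 4 lines, 13 rose in all 4 and 2, Tnfrsf25 and Tnfrsf11a, fell in all 4. These counts over 4 lines stand without a share of all genes, since the shares above are for single lines. Among the receptors 10, 12, 12 and 11 of 17 rose in the Nckap1l, Dock2, Gpsm3 and Dok3 lines, and among the ligands 5 of 10, 4 of 10, 5 of 8 and 5 of 9.

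Markers of several cell types moved with the score. Over the 4 lines its Pearson correlation ran from 0.77 to 0.91 with macrophage, from 0.82 to 0.89 with regulatory T-cell, from 0.56 to 0.78 with T-cell and from 0.70 to 0.86 with fibroblast markers, and from -0.63 to -0.18 with colon epithelial markers. The part of these cell types in the slopes was not tested.

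**Figure D4:**
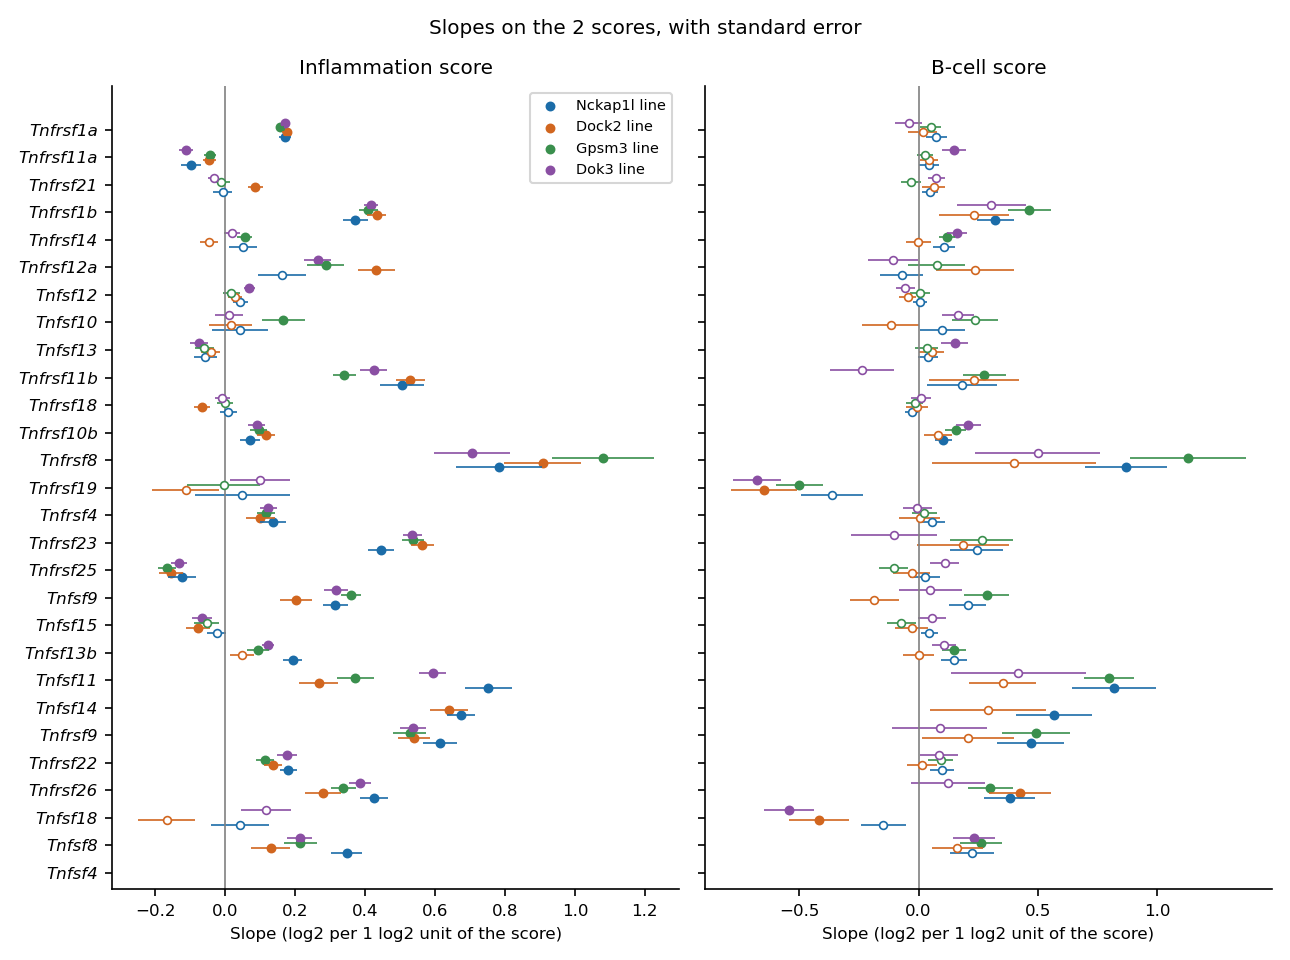
Slope of each TNF superfamily member on the inflammation score and on the B-cell score (log2 per log2 unit, ± SE, edgeR) in the 4 lines, with filled points for adjusted p under 0.05. On the inflammation score 13 members rose in all 4 lines and Tnfrsf25 and Tnfrsf11a fell in all 4, whereas on the B-cell score no member passed in all 4. No share of all genes stands beside these counts.

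Tnfrsf1b, the TNF receptor of leukocytes, and its neighbour on the same chromosome Tnfrsf8 (chromosome 4, 145213463-145246870 and 145267137-145315164, GRCm38, minus strand) were among the members that rose in every line. So was Tnfrsf9 (chromosome 4, 150914562-150946102, plus strand). Their RefSeq promoters (GRCm38.p6, the 250 bases before an annotated start, 5′ to 3′ on the gene's strand) are shown because they hold letters of motifs read by factors that act downstream of this family or of cytokines. Capitals mark matches to the NF-kB consensus in the first, to GAS (TTCNNNGAA) and then the NF-kB consensus in the second, at the downstream start of Tnfrsf9, and to GAS and then the ISRE core (GAAANNGAAA, here on the reverse strand) in the third:
Tnfrsf8, chr4:145315165-145315414, minus strand: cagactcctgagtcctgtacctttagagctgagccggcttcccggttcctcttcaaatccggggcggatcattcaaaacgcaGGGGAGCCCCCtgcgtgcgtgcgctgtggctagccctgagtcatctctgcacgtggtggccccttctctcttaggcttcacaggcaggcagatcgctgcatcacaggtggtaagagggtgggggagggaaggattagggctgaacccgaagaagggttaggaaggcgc
Tnfrsf9, chr4:150927749-150927998, plus strand: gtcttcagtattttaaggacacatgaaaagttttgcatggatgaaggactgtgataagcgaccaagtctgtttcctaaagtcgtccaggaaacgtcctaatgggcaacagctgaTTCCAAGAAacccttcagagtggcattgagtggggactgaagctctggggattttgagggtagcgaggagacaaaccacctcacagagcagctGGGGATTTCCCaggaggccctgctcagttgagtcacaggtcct
Tnfrsf1b, chr4:145246871-145247120, minus strand: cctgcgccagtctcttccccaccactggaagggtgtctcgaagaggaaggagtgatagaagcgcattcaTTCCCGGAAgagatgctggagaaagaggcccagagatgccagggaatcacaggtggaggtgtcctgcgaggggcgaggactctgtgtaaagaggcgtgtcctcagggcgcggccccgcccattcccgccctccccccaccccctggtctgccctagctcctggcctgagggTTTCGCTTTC

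RefSeq promoters were at hand for 21 of the 28 members, 25 promoters in all, searched on both strands. The NF-kB consensus occurred in the promoters of 3 members (Tnfrsf8, Tnfrsf9 and Tnfrsf25), where its matches in Tnfrsf8 and Tnfrsf9 are pairs that overlap in all but 1 base, the ISRE core in 3 (Tnfrsf1b, Tnfrsf14 and Tnfsf13b) and GAS in 5 (Tnfrsf1a, Tnfrsf1b, Tnfrsf9, Tnfrsf18 and Tnfrsf25). Among all 32851 RefSeq promoters of this length, 7.3% held the NF-kB consensus, 3.0% the ISRE core and 7.0% GAS. A match says only that these letters lie in the window.

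The CPM values show how far these receptors spread within a line. Tnfrsf1b had a lowest, median and highest value of 31.1, 66.3 and 251 CPM in the Nckap1l, 28.4, 52.9 and 290 in the Dock2, 27.97, 43.8 and 217 in the Gpsm3 and 24.1, 45.4 and 500 in the Dok3 line. The 4 medians were alike and every line had a tail of high samples. Its slope was 0.37 (SE 0.04), 0.43 (SE 0.03), 0.41 (SE 0.03) and 0.42 (SE 0.02), with edgeR adjusted p of 8.309e-10, 3.253e-17, 1.534e-15 and 3.844e-23.

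Tnfrsf23, which binds TRAIL without a death domain, had medians of 4.66, 3.17, 2.33 and 3.76 CPM and highest samples of 20.8, 16.9, 19.2 and 30.6 in the Nckap1l, Dock2, Gpsm3 and Dok3 lines. Its slope was 0.44 (SE 0.04), 0.56 (SE 0.03), 0.54 (SE 0.03) and 0.53 (SE 0.03), the edgeR adjusted p lying at or below 5.965e-11. Tnfrsf9 went from 0.171, 0.188, 0.0565 and 0.0599 CPM in the lowest sample to 10.6, 5.6, 8.10 and 9.41 in the highest. Its low samples were therefore at or under the 3-read floor and only its high samples were measured well, with slopes of 0.61 in the Nckap1l, 0.53 in the Gpsm3 and 0.54 in the Dok3 line (SE 0.05, 0.05 and 0.04, edgeR adjusted p = 2.095e-11, 2.535e-12 and 2.286e-17).

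Tnfrsf8 had the steepest slopes of the receptors, at 0.78 (SE 0.12), 0.91 (SE 0.11), 1.08 (SE 0.15) and 0.71 (SE 0.11), and the highest sample of the Nckap1l, Dock2 and Gpsm3 lines reached 58.1, 59.1 and 62.9 CPM from lowest samples under 1. Under limma-voom its Dock2 slope was 0.55. Tnfrsf1a, the more widely expressed TNF receptor, spanned 63.9 to 208, 58.5 to 191, 57.7 to 156 and 51.2 to 193 CPM and rose less steeply, with slopes between 0.16 and 0.18 in the 4 lines. In the Dock2, Gpsm3 and Dok3 lines its edgeR adjusted p was 4.822e-13, 1.304e-13 and 3.919e-18. Tnfrsf11b rose by 0.53 (SE 0.04) in the Dock2 line (edgeR adjusted p = 3.231e-14), from a lowest sample of 2.41 to a highest of 38.5 CPM.

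Among the ligands, Tnfsf14, made by activated T cells, was tested only in the Nckap1l and Dock2 lines, with slopes of 0.67 (SE 0.04, edgeR adjusted p = 2.052e-14) and 0.64 (SE 0.05, 4.231e-13). Its samples ran from 0.122 to 7.61 and from 0.0686 to 3.66 CPM, the lower end being under the floor. Tnfsf9, the ligand of the receptor that Tnfrsf9 encodes, ran from 0.382 to 4.03 CPM in the Gpsm3 line and rose by 0.36 (SE 0.03, edgeR adjusted p = 4.861e-13).

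**Figure D5:**
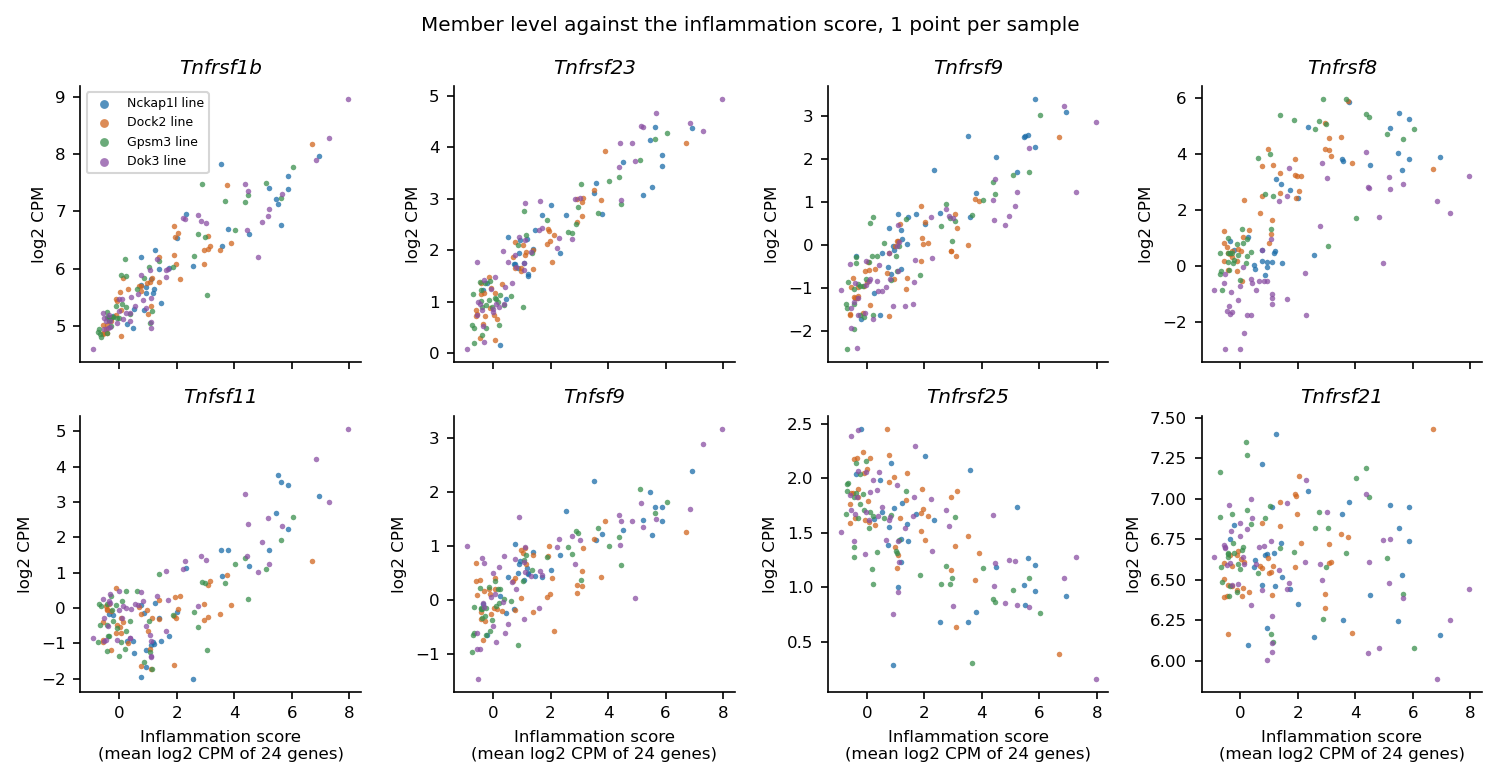
Level (log2 CPM) of Tnfrsf1b, Tnfrsf23, Tnfrsf9, Tnfrsf8, Tnfsf11, Tnfsf9, Tnfrsf25 and Tnfrsf21 against the inflammation score in the 160 samples, coloured by line. The first 6 rose with the score in all 4 lines, Tnfrsf25 fell in all 4 and Tnfrsf21 rose in the Dock2 line only.

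Falling members were few and their slopes were shallow. Tnfrsf25, the death domain receptor for TL1A, had medians of 2.59, 3.22, 2.68 and 2.94 CPM with lowest samples near 1, and its slope was -0.12 (SE 0.04), -0.16 (SE 0.03), -0.17 (SE 0.03) and -0.13 (SE 0.02), with edgeR adjusted p of 0.0127, 0.0001564, 1.089e-06 and 4.672e-06. With wild-type samples alone its Nckap1l call was lost at a slope of -0.12 (edgeR adjusted p = 0.162). Tnfrsf11a, the receptor for RANKL, ranged from 68.4 to 290 CPM in the Dok3 line and had slopes of -0.10, -0.05, -0.04 and -0.11 (edgeR adjusted p = 0.00599, 0.0313, 0.0304 and 8.162e-06). Without the 2 samples farthest from the median score the Tnfrsf11a call was lost in the Nckap1l, Dock2 and Gpsm3 lines, at slopes of -0.08, -0.02 and -0.02 (edgeR adjusted p = 0.0555, 0.381 and 0.348). It was also lost in all 4 lines with wild-type samples alone (edgeR adjusted p = 0.377, 0.260, 0.151 and 0.148) and in the Dock2 and Gpsm3 lines with skin and muscle scores as covariates (slopes of -0.03 and -0.02). Its level followed colon epithelial markers at r between 0.76 and 0.93 and skin markers at r between -0.84 and -0.75 over the lines.

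Tnfrsf18 fell in the Dock2 line (-0.07, SE 0.02, edgeR adjusted p = 0.0102), Tnfsf15 in the Dock2 and Dok3 lines (-0.08 and -0.07, edgeR adjusted p = 0.0468 and 0.0489) and Tnfsf13 in the Dok3 line (-0.08, SE 0.03, edgeR adjusted p = 0.0118). The Tnfsf15 calls lay at the threshold and were lost without the filter on low counts at slopes of -0.08 and -0.07 (edgeR adjusted p = 0.0653 and 0.0669), and in the Dok3 line the slope was -0.03 with skin and muscle scores as covariates (0.552) and -0.04 without the 2 samples farthest from the median score (0.371). With skin and muscle scores as covariates the Tnfsf13 slope was -0.0037. In all, 20 members rose in at least 1 line, 5 fell in at least 1, none did both, and the 2 tested members called in none were Tnfrsf19 and Tnfsf18. These counts, too, stand without a share of all genes.

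The relation kept its sign within genotypes and runs of sample numbers for the leading members, although it was weak in 1 run for Tnfrsf25. Pearson's r with the score ran over the 4 lines from 0.89 to 0.94 for Tnfrsf1b (within a genotype 0.89 to 0.94, within a run 0.89 to 0.96) and from 0.91 to 0.94 for Tnfrsf23 (0.89 to 0.95 and 0.80 to 0.96). For Tnfrsf9 it ran from 0.85 to 0.91 (0.83 to 0.92 and 0.75 to 0.94), for Tnfrsf8 from 0.75 to 0.80 (0.71 to 0.92 and 0.70 to 0.89), and for Tnfrsf25 from -0.75 to -0.47 (-0.82 to -0.48 and -0.80 to -0.06). Spearman's rho ran from 0.89 to 0.91 for Tnfrsf1b, from 0.82 to 0.93 for Tnfrsf23 and from -0.75 to -0.50 for Tnfrsf25, and without the 2 samples farthest from the median score r ran from 0.86 to 0.91, from 0.88 to 0.94 and from -0.74 to -0.44. Of 112 relations of a member with this score in a line, 80 passed by Pearson's r and 78 by Spearman's rho, by permutation tests with 100000 resamples and Benjamini-Hochberg adjustment over 224 relations (both scores), where 1e-05 is the smallest p the resamples can give.

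The slope of Tnfsf11 was the only one of the 28 that differed between lines by the interaction test (edgeR adjusted p = 0.0002508), where 7.39% of all genes did. Tnfsf11 encodes RANKL, which acts on RANK in bone, lymphoid organ formation and the epithelium over lymphoid follicles. It had a lowest, median and highest value of 0.118, 0.779 and 13.6 CPM in the Nckap1l, 0.175, 0.717 and 2.37 in the Dock2, 0.171, 0.776 and 5.87 in the Gpsm3 and 0.251, 1.02 and 33.8 in the Dok3 line. The medians were nearly equal, and the lines differed in how high their highest samples stood. The slope was 0.75 (SE 0.07), 0.27 (SE 0.06), 0.37 (SE 0.05) and 0.59 (SE 0.04), and without the 2 samples farthest from the median score in each line it was 0.76, 0.26, 0.27 and 0.57.

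Pearson's r of Tnfsf11 with the score was 0.87, 0.49, 0.66 and 0.87 (0.84, 0.36, 0.51 and 0.82 without the 2 farthest samples), each past the threshold by the permutation test after adjustment. Spearman's rho was 0.73, 0.42, 0.46 and 0.69, and r ran from 0.39 to 0.89 within genotypes and from 0.50 to 0.91 within runs. The next members by p in the interaction were Tnfrsf21 (edgeR adjusted p = 0.0795), Tnfsf13b (0.0841), Tnfrsf11b (0.147) and Tnfrsf12a (0.159). Tnfrsf21, a death domain receptor, rose in the Dock2 line (0.09, SE 0.02) and had slopes of -0.01, -0.01 and -0.03 in the others. Tnfsf13b had slopes of 0.19, 0.05, 0.09 and 0.12.

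The rest of the superfamily and its signalling genes showed counts of the same kind. Of the other superfamily genes 5 rose and 0 fell of 11 in the Nckap1l, 7 and 1 of 12 in the Dock2, 6 and 1 of 11 in the Gpsm3 and 9 and 1 of 12 in the Dok3 line. Tnf itself had slopes of 0.51, 0.45, 0.56 and 0.53 (SE 0.03 to 0.06), and Fas, Cd40 and Ltb also rose in all 4. Cd27, a lymphocyte receptor, fell in the Dock2 and Dok3 lines (-0.12 and -0.10). Of 24 signalling genes 15, 13, 14 and 13 rose and 1, 4, 0 and 5 fell. Nfkbia, the NF-kB inhibitor that NF-kB itself induces, rose by 0.22, 0.18, 0.13 and 0.24, while Relb of the alternative NF-kB pathway fell in the Dock2 and Dok3 lines (-0.04 and -0.05).

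A B-cell score, the mean log2 CPM of 14 B-cell genes, was used in the same way as a readout of lymphoid tissue in each sample. Its group mean was lower in KO than in WT in the Nckap1l line (-0.09 against 1.92) and in the Dock2 line (1.53 against 2.35). With genotype and sex as the only covariates, fewer members moved with it. Rising and falling members numbered 7 and 0 of 27 in the Nckap1l line (8.82% and 5.58% of all genes), 1 and 2 of 27 in the Dock2 line (2.15% and 5.2%), 11 and 1 of 25 in the Gpsm3 line (13.4% and 15%) and 5 and 2 of 26 in the Dok3 line (8.94% and 15.3%). No member passed in all 4 lines, 14 rose in at least 1 and 2, Tnfrsf19 and Tnfsf18, fell in at least 1, counts that have no share of all genes beside them. Over the alternatives tried, members called ran from 3 to 14 in the Nckap1l and from 0 to 4 in the Dock2 line. They ran from 1 to 14 in the Gpsm3 and from 4 to 16 in the Dok3 line. The highest counts came with skin and muscle covariates in the Nckap1l line and with both scores in the fit in the Dok3 line.

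Tnfrsf8 rose with the B-cell score in the Nckap1l and Gpsm3 lines (0.87, SE 0.17, edgeR adjusted p = 0.00122, and 1.13, SE 0.24, 0.0006211), and so did Tnfsf11 (0.82, SE 0.18, 0.00266, and 0.80, SE 0.10, 1.512e-07) and Tnfrsf1b (0.32, SE 0.08, 0.00701, and 0.46, SE 0.09, 0.0001731). The Gpsm3 call of Tnfrsf1b was lost with skin and muscle covariates (0.30, edgeR adjusted p = 0.176). With wild-type samples alone the Gpsm3 calls of Tnfrsf1b and Tnfrsf8 were lost (0.27 and 1.355, edgeR adjusted p = 0.382 and 0.0735). Tnfrsf26 rose in 3 lines, among them the Nckap1l and Dock2 lines (0.38 and 0.43, edgeR adjusted p = 0.0169 and 0.0358). Without the 2 samples farthest from the median score its call was lost in these lines (0.28 and 0.46, edgeR adjusted p = 0.144 and 0.112). The Dock2 call was also lost with skin and muscle covariates (0.49, edgeR adjusted p = 0.0825). Tnfsf14 rose in the Nckap1l line (0.57, edgeR adjusted p = 0.0165). With both scores in the fit the Nckap1l slopes of Tnfsf14, Tnfrsf26 and Tnfrsf1b on the B-cell score were 0.04, 0.10 and 0.09 (edgeR adjusted p = 0.974, 0.265 and 0.162). With the run of sample numbers as a covariate the Nckap1l calls of Tnfsf14 and Tnfrsf1b were lost (0.58 and 0.32, edgeR adjusted p = 0.136 and 0.105). Tnfrsf10b, which rose in 3 lines, and Tnfrsf14 rose in the Gpsm3 line (0.16 and 0.12, edgeR adjusted p = 0.00858 and 0.00666) and in the Dok3 line (0.21 and 0.16, 0.00184 and 0.00366). The Gpsm3 calls of both were lost with skin and muscle covariates (0.09 and 0.07, edgeR adjusted p = 0.5203 and 0.471), with both scores in the fit (0.10 and 0.10, 0.1198 and 0.0596) and with wild-type samples alone (0.14 and 0.12, 0.364 and 0.263), and that of Tnfrsf14 in the Dok3 line with skin and muscle covariates (0.10, 0.157). Tnfsf8 rose in 2 lines. In the Dok3 line Tnfrsf11a (0.15), Tnfsf13 (0.15) and Tnfsf8 (0.23) also rose, with edgeR adjusted p of 0.0257, 0.0411 and 0.0454. The Tnfsf8 call lay at the threshold and was lost without the filter on low counts (0.24, edgeR adjusted p = 0.0514). It was also lost with the run of sample numbers as a covariate (0.21, 0.0754) and without the 2 samples farthest from the median score (0.28, 0.0501). With skin and muscle covariates the Tnfrsf11a slope was -0.0246 and that of Tnfsf13 0.0082 (edgeR adjusted p = 0.7005 and 0.933). The inflammation and B-cell scores correlated at r between 0.08 and 0.43 over the lines, so that the slopes on each share part of their variation.

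Tnfrsf19 fell with the B-cell score in the Dock2, Gpsm3 and Dok3 lines by 0.65 (SE 0.14), 0.50 (SE 0.10) and 0.68 (SE 0.10) on the log2 scale per unit (edgeR adjusted p = 0.00163, 0.0002334 and 9.536e-07). It had 1.91, 7.31 and 46.7 CPM (lowest, median, highest) in the Nckap1l, 1.46, 6.49 and 29.6 in the Dock2, 1.21, 6.67 and 45.5 in the Gpsm3 and 1.02, 5.03 and 63.7 in the Dok3 line, a small set of samples standing far above the median in each. Tnfrsf19 followed skin markers at r between 0.64 and 0.95 and striated muscle markers at r between 0.66 and 0.85 over the lines. With both as covariates its slope on the B-cell score was -0.13, 0.12 and -0.19 (edgeR adjusted p = 0.781, 0.757 and 0.173).

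Tnfsf18 fell with the B-cell score by 0.42 (SE 0.13) in the Dock2 and 0.54 (SE 0.11) in the Dok3 line (edgeR adjusted p = 0.0324 and 9.309e-05), followed skin markers at r between 0.19 and 0.78, and had slopes of -0.26 and -0.16 with the covariates (edgeR adjusted p = 0.571 and 0.388). Within runs of sample numbers r of Tnfrsf19 with the B-cell score ran from -0.76 to 0.65, so it did not keep its sign in each run, against -0.59 to -0.31 over the lines. Pearson's r passed in 31 and Spearman's rho in 34 of 112 relations with the B-cell score. No member's B-cell slope differed between lines (edgeR and limma-voom, 0 members; 2 had an unadjusted p under 0.05; 3.86% of all genes differed), and the smallest adjusted p were those of Tnfsf18 (0.229), Tnfrsf11b (0.230), Tnfsf9 (0.338), Tnfrsf25 (0.442) and Tnfrsf19 (0.5004).

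Ligands and their receptors were then compared across samples of a line in 11 pairs, 44 relations in all, of which 17 passed by Pearson's r and a permutation test with 100000 resamples and adjustment over the 44. The ligand and receptor levels come from the same libraries, so that depth and cell makeup are shared. Genotype, sex and run of sample numbers were not taken into account, and the pairs were not examined within them. Tnfsf9 and Tnfrsf9 rose together in all 4 lines (r = 0.88, 0.57, 0.81 and 0.68 in the Nckap1l, Dock2, Gpsm3 and Dok3 lines; rho = 0.83, 0.55, 0.80 and 0.63; r = 0.86, 0.52, 0.76 and 0.61 without the 2 farthest samples). Tnfsf8 and Tnfrsf8 had r of 0.64, 0.38, 0.55 and 0.57 (rho 0.64, 0.33, 0.56 and 0.56), where rho did not pass in the Dock2 line. Tnfsf11 and its decoy receptor Tnfrsf11b had r of 0.67, 0.45, 0.47 and 0.60 (rho 0.55, 0.48, 0.35 and 0.57), where rho did not pass in the Gpsm3 line and r was 0.65, 0.38, 0.24 and 0.59 without the 2 farthest samples.

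The signalling receptor Tnfrsf11a ran against Tnfsf11 in the Dok3 line (r = -0.45, rho = -0.36, -0.20 without the 2 farthest samples). Tnfsf4 and Tnfrsf4 passed in the Nckap1l and Dok3 lines (r = 0.43 and 0.44, and 0.43 and 0.34 without the 2 farthest samples). The median of Tnfsf4 was 0.395 and 0.245 CPM there, within the range of the 3-read floors. After the inflammation score was taken out of both genes as residuals, 1 of the 44 relations passed, that of Tnfsf12 with Tnfrsf12a in the Gpsm3 line (r = -0.52, adjusted permutation p = 0.0189). This relation had not passed before (r = -0.30, adjusted permutation p = 0.118). In the Dok3 line the same pair had passed before with the opposite sign (r = 0.34, adjusted permutation p = 0.046). After the score was taken out, the pair had r of -0.09, -0.06 and -0.03 in the Nckap1l, Dock2 and Dok3 lines. The Tnfsf9 and Tnfrsf9 relation then had r of 0.46, 0.25, 0.20 and -0.01, and that of Tnfsf11 and Tnfrsf11b -0.07, 0.06, -0.22 and -0.33.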

How the data were processed

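Counts of reads per gene were deposited by the authors, 1 file per sample, made with STAR and featureCounts of the Subread package on mm10 per the submitters' processing notes, from ribosome-depleted stranded libraries; the study's supplement names an Ensembl build of mm10, and tool versions, the annotation release and the strand setting are not given in the sources used here. Gene IDs were matched to GENCODE vM21 (GRCm38), which gave names to 37693 of 39179 IDs (96.2%) and 99.67% of counts. No paired fit was made, since replicate numbers only name samples.

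Each line was fitted in edgeR 4.0.16 (quasi-likelihood, TMM, filterByExpr, Benjamini-Hochberg over all genes tested, threshold 0.05) under R 4.3.3, and sex entered the fit where both sexes were present. Scores were mean log2 CPM with a prior count of 2. CPM used library totals scaled by the TMM factors, and RPKM also used the merged exon length. The 3-read floors in CPM used the library totals without these factors. Fits were checked on data simulated for the Gpsm3 and Dok3 lines, with the same dispersion for every gene. That check does not cover genes with a tail of high samples, or the fits with sex. Alternatives used limma 3.58.1 (voom), DESeq2 1.42.0, no filter on low counts, other covariates and subsets of samples. Correlations used scipy 1.17.1. Depth was 4344988 to 19993833 counts per sample, and the 3-read floors cover counting error only, while SDs and SEs hold the spread between samples.

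The members and lists were chosen with earlier results of these data known. Full statistics were given to members with an adjusted p under 0.05 for genotype, genotype by line or sex, to the 3 with the smallest genotype p in each line, to the 5 rising and 5 falling with the smallest p per score and line, and to the 5 with the smallest p between the Dok3 and Gpsm3 lines and in each score-by-line test; other members were named after their values were seen. Nothing in the labels says how samples relate beyond separate mouse numbers, so p-values measure the spread between these samples. Runs are consecutive series of the sample numbers in the titles, not a stated batch.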

Additional observations from a re-analysis of the deposited data

Results flagged for a closer look

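The slope of Tnfsf11 on the inflammation score differed between the 4 lines by the interaction test (edgeR adjusted p = 0.0002508), which is why it is listed here. The slopes were 0.75, 0.27, 0.37 and 0.59 in the Nckap1l, Dock2, Gpsm3 and Dok3 lines, and 0.81, 0.27, 0.33 and 0.69 with skin and striated muscle scores as covariates. Strain, DSS percentage, day of collection and experiment differ between the lines and cannot be told apart. No group had 10 or fewer samples, so no group was examined for single outlying samples.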

How the results depend on the processing

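Of the alternatives tried for the counts of members called, 99 stayed within 1.5 times the reported count and 23 did not; of those for single members' tests, 538 kept direction and side of the threshold, 64 lost the call, 1 gained it and 3 changed sign, and of those for correlations with a score 199 kept their sign and 1 did not. The covariates for skin and muscle, the fits without the 2 samples farthest from the median score or without the 5 samples of unexpected sex markers, and the fit without the first run of Gpsm3 sample numbers were chosen after seeing the data. Where no construction of the alternative (fewer samples, fewer genes) shows it, the cause was not tested. No paired analysis was possible because the replicate numbers of the groups carry no pairing in the labels.

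With skin and muscle covariates Tnfrsf19 changed sign in the Dok3 knockout comparison (0.0146) and in the Gpsm3 B-cell slope (0.12), and Tnfrsf11a in the Dok3 B-cell slope (-0.0246). The correlation of Tnfsf13 with the inflammation score in the Dok3 line was 0.0093 within the second run. In Dock2 females against males, 1 member became 0 without a filter, 5 with the inflammation covariate and 4 with skin and muscle covariates. Between the Dok3 and Gpsm3 lines, 9 became 3 without the first run of Gpsm3 sample numbers. With wild-type samples alone, which leaves fewer samples and members tested, inflammation slopes called fell from 17 to 11 (Nckap1l), 20 to 12 (Dock2), 19 to 11 (Gpsm3) and 20 to 9 (Dok3), and B-cell slopes from 3 to 1 (Dock2) and 12 to 1 (Gpsm3). B-cell slopes otherwise moved from 7 to 3 with the run as a covariate, 4 with the short B-cell list, 14 with skin and muscle covariates and 3 without the 2 farthest samples (Nckap1l), from 3 to 0 and 1 under the last 2 settings (Dock2), from 12 to 5 with both scores together and 4 with skin and muscle covariates (Gpsm3), and from 7 to 16, 11 and 4 with both scores, skin and muscle covariates and without the 2 farthest samples (Dok3). Limma-voom called 2 inflammation slopes by line instead of 1, adding Tnfsf13b (adjusted p = 0.0308), and after the inflammation score was taken out 1 of the 44 ligand and receptor relations passed instead of 17, and it was none of those 17.

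The treatment of each animal is unknown here, so that every knockout difference is a mean over treated and untreated mice, and members under about 1 CPM rest on few reads.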
